A study of Mus musculus with 8 samples.

Results

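The RNA of whole embryonic gonads included transcripts of the red blood cell lineage, of which 9 genes are described here: Gata1, Tal1, Klf1, Nfe2, Epor, Alas2, Slc4a1, Epb42 and Ermap. They were chosen by name as erythroid regulators and membrane proteins, and each matched 1 of the 48440 genes in the deposited tables. Polyadenylated RNA was sequenced from mouse gonads at embryonic day 11.5, with 2 pairs of gonads in each pool. The 4 groups were XY Kdm6b-null, XY wild type, XX Kdm6b-null and XX wild type, with 2 libraries in each. The null embryos are labelled as knockouts of Kdm6b, which encodes a demethylase of histone H3 lysine 27. The sources used here do not give the strain, the deleted part of the gene, any Cre driver or the litters the pools came from, so p-values measure the spread between these pools. The samples are labelled pre-Sertoli (XY) and pre-granulosa (XX) cells, but no sorting is described, and the tissue is given as gonad.

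Red cells of the embryo arise first in the yolk sac and later in the liver, and at mid-gestation primitive erythroid cells circulate while still nucleated and rich in messenger RNA. GATA1 and TAL1 act with KLF1 and NF-E2 to switch on genes for haem synthesis, globins and the red cell membrane. Erythropoietin, acting through its receptor, keeps maturing erythroid cells alive. Gata1, Tal1 and Nfe2 are also used in megakaryocytes, Gata1 in mast cells, and Tal1 in endothelium.

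Promoter sequence is shown for 5 members whose levels are described below, since GATA and KLF factors are known to act on erythroid genes through short motifs near the start site. The windows hold the 250 bases before the transcription start, 5′ to 3′ on the gene's strand, from RefSeq on GRCm38.p6. Capitals mark AGATAA or TGATAA, as bound by GATA factors, and CCNCNCCC, as bound by KLF factors, each on either strand (TTATCT and TTATCA are the GATA motif read from the opposite strand).
Gata1 (chrX:7967911-7968160, minus strand): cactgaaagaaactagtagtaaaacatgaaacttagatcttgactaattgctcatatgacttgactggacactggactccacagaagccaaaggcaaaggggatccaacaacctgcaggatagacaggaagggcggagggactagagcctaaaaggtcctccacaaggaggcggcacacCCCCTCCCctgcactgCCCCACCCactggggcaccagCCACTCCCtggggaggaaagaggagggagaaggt
Klf1 (chr8:84901732-84901981, plus strand): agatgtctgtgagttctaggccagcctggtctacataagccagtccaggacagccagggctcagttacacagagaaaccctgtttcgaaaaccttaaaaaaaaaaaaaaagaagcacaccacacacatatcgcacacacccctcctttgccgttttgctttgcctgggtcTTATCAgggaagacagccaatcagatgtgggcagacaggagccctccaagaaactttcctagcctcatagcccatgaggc
Epor (chr9:21963577-21963826, minus strand): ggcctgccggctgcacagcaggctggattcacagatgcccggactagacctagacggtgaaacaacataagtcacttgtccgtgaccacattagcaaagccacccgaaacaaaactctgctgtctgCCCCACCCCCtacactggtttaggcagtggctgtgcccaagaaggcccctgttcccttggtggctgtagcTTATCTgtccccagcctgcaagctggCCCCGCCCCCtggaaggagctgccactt
Alas2 (chrX:150547167-150547416, plus strand): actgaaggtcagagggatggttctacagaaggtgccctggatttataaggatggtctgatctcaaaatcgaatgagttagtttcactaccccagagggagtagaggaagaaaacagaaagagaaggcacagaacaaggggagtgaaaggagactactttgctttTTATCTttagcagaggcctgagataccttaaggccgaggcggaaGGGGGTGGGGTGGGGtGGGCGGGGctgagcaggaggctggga
Ermap (chr4:119189996-119190245, minus strand): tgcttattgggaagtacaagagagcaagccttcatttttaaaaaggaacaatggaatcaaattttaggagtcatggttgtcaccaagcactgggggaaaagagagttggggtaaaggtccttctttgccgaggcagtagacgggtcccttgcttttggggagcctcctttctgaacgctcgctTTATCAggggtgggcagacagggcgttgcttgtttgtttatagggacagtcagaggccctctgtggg
The RefSeq table held windows for 7 of the 9 members, without Slc4a1 and Nfe2. In GENCODE M21 on the same build Slc4a1 spans chr11:102348824-102366203 (minus strand) and Nfe2 chr15:103248212-103258403 (minus strand). Tal1 spans chr4:115056426-115071755 (plus strand) and Epb42 chr2:121017891-121037072 (minus strand). The GATA motif was found in 6 of these 7 genes (Tal1, Klf1, Epor, Alas2, Epb42 and Ermap), against 18.8% of all 27025 genes with a window. Its 5′-most base lay 54 bases before the start in Epor, 67 in Ermap, 80 in Klf1 and 86 in Alas2. It lay farther away in Tal1, at 205 bases, and in Epb42, at 226. CCNCNCCC was found in 4 of the 7 (Gata1, Tal1, Epor and Alas2), against 48.5% of all genes. For Tal1 the motifs were in separate windows: GATA at chr4:115056176-115056425 and CCNCNCCC at chr4:115057561-115057810. The E-box CAGNTG, as bound by TAL1 with its partners, was found in 3 of the 7 (Klf1, Epor and Epb42), against 48.2%. No base belonged to a match of both capital motifs in any of these windows. A match describes the letters and does not show binding.

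Each library held 19107103 to 19828638 counts on genes. A value of 0 could hide up to 3 counts, worth 2.91 to 3.09 normalized counts, and counting error alone covers none of the error added by amplification. Kdm6b had 1238 and 1037 normalized counts in XY Kdm6b-null gonads, against 3399 and 3181 in XY wild type gonads. In XX gonads it had 1249 and 1125 in the null, against 2218 and 2796 in wild type. All null libraries were below the wild type libraries of their sex. Limma still did not call Kdm6b, with log2 fold changes of -1.54 in XY (limma adjusted p = 0.12) and -1.07 in XX (limma adjusted p = 0.19). The authors' deposited table called it in both sexes (DESeq2 adjusted p = 8.2e-25 in XY and 7.1e-07 in XX). With 2 libraries per group, a gene that limma does not call may still have changed. The 6 gonadal somatic markers checked (Gata4, Nr5a1, Wt1, Lhx9, Emx2 and Cbx2) were detected in every group, summing to 9945 to 17286 normalized counts per library. XX wild type replicate 1 stood apart: its fetal liver and yolk sac markers (8 genes, led by Afp) summed to 15112 normalized counts, against 42.2 to 425 in the other 7 libraries. The replicates of XX wild type correlated at 0.963 on the log2 scale, against 0.980 to 0.985 in the other groups. XY and XX libraries were normalized in separate tables, so levels are set side by side across sexes without a test.

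In XY gonads all 9 members had positive log2 fold changes (null over wild type), with a median of 0.43, against -0.00013 over all 16821 genes tested. None passed limma's test and the groups overlapped for every member, with replicate 2 above replicate 1 in both genotypes. In XX gonads the log2 fold change was negative for 7 of the 9 and the median was -0.35, against 0.00068 over all 17028 genes tested. Alas2, Epb42 and Ermap were lower in both null libraries than in both wild type libraries, as were 22.5% of all genes tested. Alas2 alone of the 9 passed in the authors' deposited table, which called 2.77% of its genes. In bulk tissue, fewer red cells and less RNA per red cell cannot be told apart.

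Gata1, the zinc finger factor at the head of red cell and megakaryocyte programmes, had 59.5 and 164 normalized counts in XY Kdm6b-null gonads, against 54.4 and 97.7 in XY wild type gonads. In XX gonads Gata1 had 132 and 105 in the null, against 66.9 and 201 in wild type. The ranges overlapped in both sexes, and in XX both null values lay between the wild type values. The log2 fold change of Gata1 was 0.43 (SE 0.54) in XY gonads, and it was 0.016 (SE 0.52) in XX gonads. In the authors' deposited table the XX value was -0.18, so its sign differed between the tools. Klf1, which activates adult-type beta globin and many membrane genes, had 52.7 and 171 in XY null libraries, against 45.5 and 104.7 in XY wild type libraries. Klf1 had 94.7 and 101 in XX null libraries, against 77.6 and 186 in XX wild type libraries. Its log2 fold change was 0.45 (SE 0.65) in XY gonads, while the XX value was -0.30 (SE 0.42). Like Gata1 it was lowest in XY wild type replicate 1 and highest in XX wild type replicate 2. These 2 genes rested on the fewest reads of the 9: Klf1 had 46 to 184 counts per library and Gata1 55 to 199, so that counting alone gave a relative error of up to 14.7% for Klf1.

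Tal1, a bHLH factor needed for the first blood cells, had 323 and 551 normalized counts in XY Kdm6b-null gonads, against 298 and 531 in XY wild type gonads. In XX gonads Tal1 had 436 and 435 in the null, against 418 and 741 in wild type. It had the smallest XY log2 fold change of the 9 members, 0.084 (SE 0.36), and -0.35 (SE 0.27) in XX. Nfe2, the blood-restricted subunit of NF-E2, had 115 and 223 normalized counts in XY Kdm6b-null gonads, against 99.9 and 147 in XY wild type gonads. Nfe2 had 194 and 169 in XX null libraries, against 160.1 and 290.3 in XX wild type libraries. For both genes the XX null values lay together between the 2 wild type values. For Nfe2 the XY log2 fold change was 0.40 (SE 0.37), and the XX one was -0.25 (SE 0.30).

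Epor, the erythropoietin receptor, had 107 and 233 normalized counts in XY Kdm6b-null gonads, against 107 and 147 in XY wild type gonads. In XX gonads Epor had 190.3 and 161 in the null, against 105 and 257 in wild type. Replicate 1 of the XY null was thus at the level of the lower wild type library, and the XX wild type libraries bracketed the null. For Epor the XY log2 fold change was 0.33 (SE 0.40), and the XX one was 0.090 (SE 0.43). The authors' deposited table gave -0.043 for Epor in XX.

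Alas2, the erythroid enzyme that starts haem synthesis, had 584 and 1597 normalized counts in XY Kdm6b-null gonads, against 562 and 887 in XY wild type gonads. In XX gonads Alas2 had 1145 and 925 in the null, against 1569.7 and 2101 in wild type. The XY groups overlapped, with a log2 fold change of 0.45 (SE 0.49), and the XX groups did not. The XX log2 fold change was -0.82 (SE 0.18, limma adjusted p = 0.26), lower in both of the 2 null libraries than in either wild type library. In the authors' deposited table it was -0.83 (SE 0.21, DESeq2 adjusted p = 0.0050), and 0.823% of the 14704 genes in that table were called lower. Alas2 shares 311 exonic bases with Apex2 on the opposite strand, and the sources do not say whether counting used the strand. Apex2 had 465 to 579 normalized counts in the 8 libraries.

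Slc4a1, the band 3 anion exchanger of the red cell membrane and the member with the most reads in every library, had 2045 and 4662 normalized counts in XY Kdm6b-null gonads, against 1572 and 2402 in XY wild type gonads. In XX gonads Slc4a1 had 3213 and 3053 in the null, against 3206 and 6873 in wild type. Both XX null values lay close to the lower wild type value, and the XY groups overlapped. Counting error was at most 2.51% in any library and does not include variation between pools. For Slc4a1 the XY log2 fold change was 0.67 (SE 0.41), and the XX one was -0.58 (SE 0.35). Epb42, protein 4.2, which ties band 3 to the membrane skeleton, had 162 and 385 in XY null libraries, against 145 and 257 in XY wild type libraries. Epb42 had 292 and 249 in XX null libraries, against 329 and 542 in XX wild type libraries. Both XX null values were below both wild type values, with a log2 fold change of -0.65 (SE 0.26), and the XY value was 0.37 (SE 0.47).

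Ermap, an immunoglobulin-family protein of the red cell surface that carries the Scianna blood group in humans, had 313 and 631 normalized counts in XY Kdm6b-null gonads, against 185 and 354 in XY wild type gonads. In XX gonads Ermap had 453 and 368 in the null, against 489 and 1047 in wild type. It had the largest XY log2 fold change of the 9, 0.79 (SE 0.43), and -0.81 (SE 0.36) in XX. Only in XX were its groups separate, by the narrow gap between 453 and 489.

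**Figure D1:**
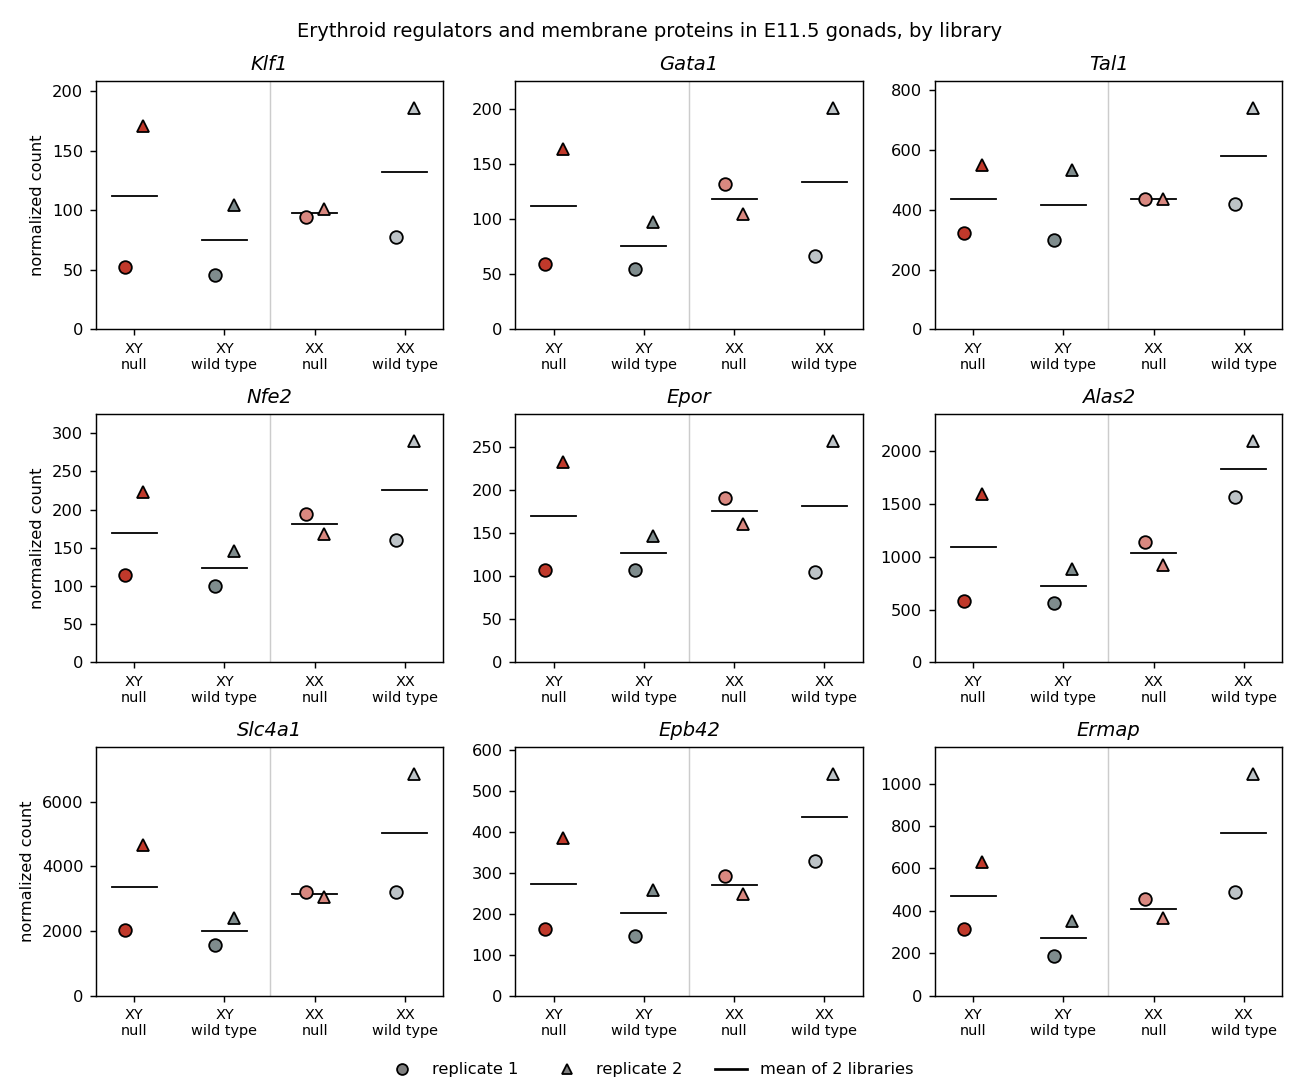
Normalized counts (linear axes from 0) of the 9 genes in XY and XX gonads, Kdm6b-null left of wild type, with each library as a point (circle for replicate 1, triangle for replicate 2) and the group mean as a line. In XY gonads the triangles lie above the circles in both genotypes for all 9 genes, and in XX wild type the ratio of triangle to circle is widest for Gata1 (66.9 in replicate 1 and 201 in replicate 2).

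Compared per kilobase of exon, the order of levels was alike in the 4 groups. Slc4a1 and then Alas2 led in every group, at 686 and 454 normalized counts per kilobase on average in XY Kdm6b-null gonads and 406 and 302 in XY wild type gonads. In XX gonads they averaged 641 and 431 in the null, and 1030.4 and 764 in wild type. Within a library Slc4a1 was above Alas2, except that they were level in XX wild type replicate 1, at 656 and 653 per kilobase, a gap smaller than the counting error of either. The other 7 genes lay far lower, from Gata1, the last in every group, at 45.8 in the XY null, 31.2 in XY wild type, 48.5 in the XX null and 55.0 in XX wild type, to Tal1 or Ermap. In XX wild type Ermap averaged 145 and Tal1 132 per kilobase, and in the other 3 groups Tal1 came next after Alas2, at 94.7 to 99.7. The library values of Slc4a1 and Alas2 overlapped in all groups but the XX null, and those of Alas2 and the gene below it overlapped in none. Further down, all neighbours overlapped in both XY groups and in XX wild type. In the XX null, Tal1 and Epor, Ermap and Klf1, and Nfe2 and Epb42 did not overlap. Lengths are merged exons of GENCODE M21, which may differ from the annotation that was counted.

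The comparison in XY gonads asks what loss of Kdm6b does as testis determination begins. By limma 0 of the 9 members and 0% of the 16821 genes tested were called (smallest adjusted p 0.12, and 834 genes with an unadjusted p under 0.05), and the authors' DESeq2 table called 0.402% of its 17890 genes and no member. Limma's adjusted p was 0.999 for each of the 9, and the authors' deposited table gave adjusted p = 0.9999. The XY intervals were wide: for Klf1 the 95% interval ran from -1.18 to 2.08 and for Slc4a1 from -0.35 to 1.69. No member had both null libraries above both wild type libraries, whereas 16.6% of the genes tested did. The positive sign rested on XY Kdm6b-null replicate 2. Its median deviation over the members was 1.15 from the wild type mean on the log2 scale, against -0.26 in null replicate 1. Without null replicate 2 the median log2 fold change of the members was -0.26, and 2 of 9 (Slc4a1 at 0.074 and Ermap at 0.29) remained positive. Without null replicate 1 it was 1.15, leaving out wild type replicate 1 gave 0.11 and leaving out wild type replicate 2 gave 0.78.

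**Figure D2:**
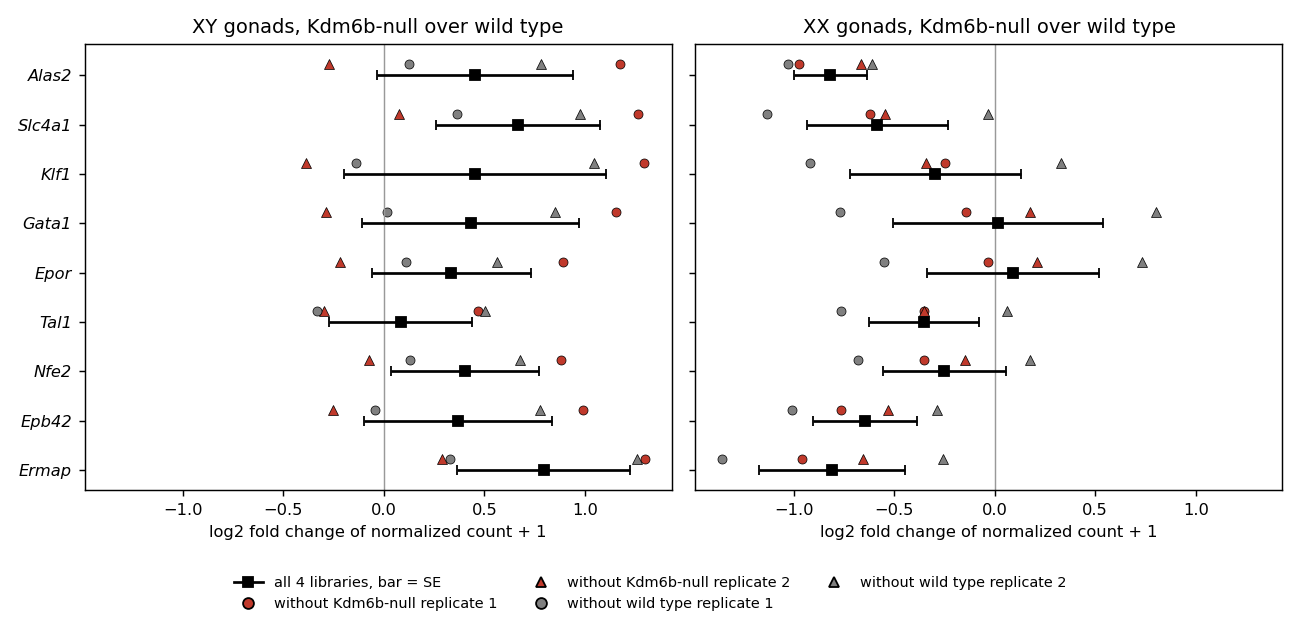
Log2 fold change (Kdm6b-null over wild type, log2 of normalized count + 1) of each gene in XY and XX gonads, with squares and SE bars for all 4 libraries and small symbols above them for the fits that leave out 1 library. In XY the red triangles (without null replicate 2) lie below 0 for 7 of the 9 genes, and in XX the grey symbols (without a wild type library) spread widest, for Gata1 from -0.77 to 0.80.

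The comparison in XX gonads asks the same of gonads without Sry. By limma 0 of the 9 members and 0% of the 17028 genes tested were called (smallest adjusted p 0.10, and 2383 genes with an unadjusted p under 0.05), and the authors' table called 407 genes. Members had both null libraries below both wild type libraries in 3 of 9 cases (Alas2, Epb42 and Ermap), against 22.5% of all genes tested. After Alas2 the smallest adjusted p-values in the authors' deposited table were those of Ermap (log2 fold change -0.90, DESeq2 adjusted p = 0.14) and Epb42 (-0.69, adjusted p = 0.24). The members differed among themselves: the log2 fold changes ran from -0.82 for Alas2 to 0.090 for Epor, and the 95% interval of Epor was -0.99 to 1.17.

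These XX values depended on which wild type library stood for the group. Without XX wild type replicate 1, whose liver markers were high, the median of the members was -0.92 and all 9 were negative. Then 5 of the 9 fell by limma, with log2 fold changes of -1.36 for Ermap (adjusted p = 0.0089), -1.13 for Slc4a1 (adjusted p = 0.0018), -1.03 for Alas2, -1.01 for Epb42 and -0.76 for Tal1, the last with adjusted p = 0.019. In that fit 1.28% of the 16824 genes tested were called lower and 2.41% higher, and the lone wild type library is assumed to vary like the null libraries. Without XX wild type replicate 2 the median was 0.060, with Klf1 at 0.33, Gata1 at 0.80, Epor at 0.73, Nfe2 at 0.18 and Tal1 at 0.060. Only Alas2 fell in that fit (log2 fold change -0.61, limma adjusted p = 0.024), where 6.94% of all genes tested were called lower and 14% higher. Alas2, Slc4a1, Epb42 and Ermap were negative whichever library was left out, though Slc4a1 was at -0.034 without wild type replicate 2.

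The XY effect minus the XX effect was positive for all 9 members, with a median of 0.75 on the log2 scale, against -0.015 over all 16943 genes tested. The largest were Ermap at 1.60 (SE 0.66, limma adjusted p = 0.59), Alas2 at 1.27 (SE 0.61, adjusted p = 0.61) and Slc4a1 at 1.25 (SE 0.63, adjusted p = 0.62). Epor, at 0.24 (95% interval -1.31 to 1.80), had the smallest. By limma 0 members and 0% of all genes were called, with 1425 genes at an unadjusted p under 0.05. Leaving out XY Kdm6b-null replicate 2 gave a median of 0.18 with 6 of 9 positive, and leaving out XX wild type replicate 2 gave 0.23 with 7 of 9 positive.

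The spread between pools of 1 group was itself a property shared by the members. In XY Kdm6b-null gonads all 9 were higher in replicate 2 than in replicate 1, by 1.71-fold (Tal1) to 3.24-fold (Klf1). In XY wild type gonads all 9 were again higher in replicate 2, by 1.37-fold (Epor) to 2.30-fold (Klf1). In XX wild type gonads the fold was 1.34 (Alas2) to 3.01 (Gata1), also with all 9 higher in replicate 2. The XX null replicates were closest, with replicate 2 at 0.799 (Gata1) to 1.07 (Klf1) times replicate 1. The 9 members together summed to 3762 and 8616 normalized counts in XY Kdm6b-null gonads, against 3069 and 4927 in XY wild type gonads. In XX gonads they summed to 6150.4 and 5565 in the null, against 6422 and 12239 in wild type. The 7 globin genes, the main product of red cells, summed to 69165 and 209152 normalized counts in XY null libraries, against 59764 and 101975 in XY wild type libraries. In XX they summed to 119181 and 112496 in null libraries, against 190529 and 242274 in wild type libraries. The part of blood content in the member values was not tested.

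The members' proportions to one another also differed between libraries, most in XX wild type replicate 1. The ratio of Alas2 to Gata1 was 9.82 and 9.76 in XY Kdm6b-null gonads, against 10.3 and 9.08 in XY wild type gonads. In XX gonads it was 8.70 and 8.81 in the null, against 23.4 and 10.4 in wild type. XX wild type replicate 1 therefore stood outside the range of 8.70 to 10.4 that held the rest. The same library had the highest ratio of Epb42 to Gata1, at 4.91 against 2.22 to 2.72 in the other 7, and of Alas2 to Epor, at 15.0 against 5.26 to 8.18. It also had the most globin RNA per member RNA, 29.7 against 18.4 to 24.3. Slc4a1 to Gata1 was highest there too, at 47.9 against 24.4 to 34.4, as were Ermap, Tal1, Nfe2 and Klf1 to Gata1. Alas2 to Slc4a1 was 0.49 in that library, against 0.29 to 0.37. Only Epor to Gata1, at 1.57, was within the range of the other libraries among the ratios computed. Relative to the mean of the 9 instead of Gata1, Slc4a1, Ermap, Tal1 and Nfe2 were within the range of the other 7 libraries. They were at 0.085, 0.28, -0.022 and -0.031 on the log2 scale. Klf1 in XX wild type replicate 1 was below its range, at -0.17 against -0.14 to 0.35. This library and these ratios were picked after the values were seen, and the part of its liver and yolk sac markers in them was not tested.

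**Figure D3:**
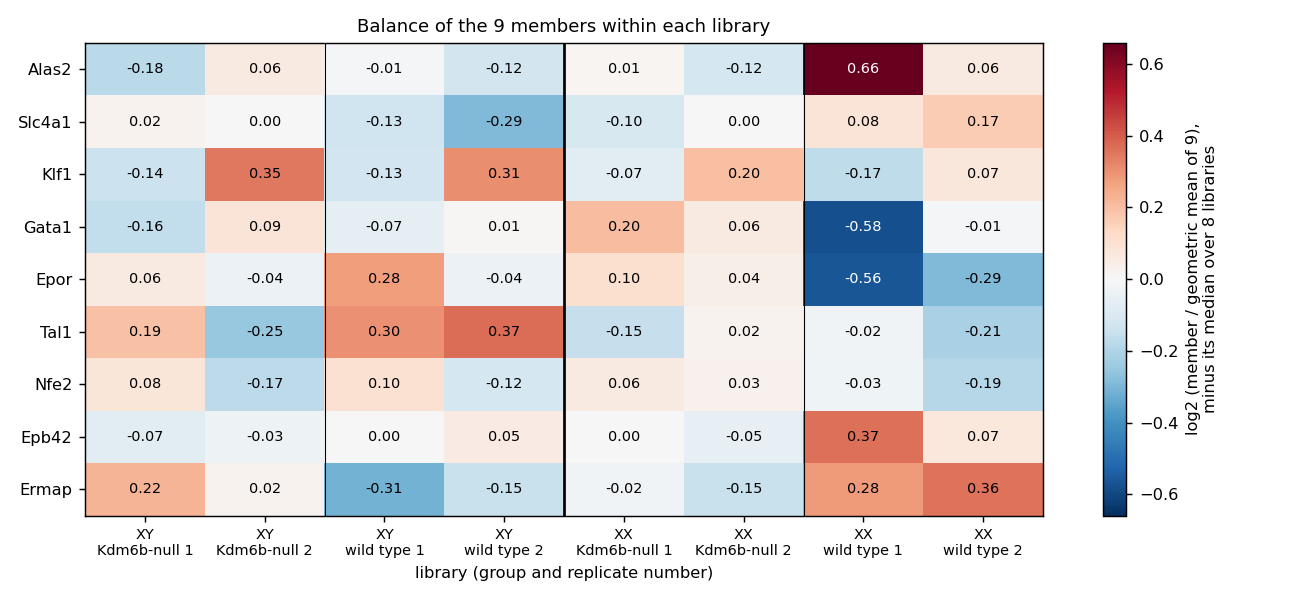
Each cell gives log2 of a gene over the geometric mean of the 9 in that library, minus its median over the 8 libraries (rows are genes, columns are libraries with Kdm6b-null left of wild type in each sex, and colour runs from blue for low to red for high). XX wild type replicate 1 shows Alas2 at 0.66 and Epb42 at 0.37 above, and Gata1 at -0.58 and Epor at -0.56 below, the balance of the other libraries.

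Across the 8 libraries, centred within each sex, every member correlated with the mean of the other 8 at 0.882 (Epor) to 0.994 (Nfe2). Gata1 and Epor were the closest pair (r = 0.992), then Slc4a1 and Nfe2 (0.976), and Alas2 was closest to Epb42 (0.975) and least like Epor (0.681). These are descriptions over 8 libraries, and the points share library, depth and normalization. Other genes with a mean of at least 50 in each sex were ranked by likeness to the mean of the members. Genes named Gm or Rik with digits were left out, which kept 12203. The most alike were Abcb10, a mitochondrial transporter of haem-making cells (r = 0.990), and Rhag, the Rh-associated glycoprotein (0.985). Next came Ank1, the ankyrin of the red cell skeleton (0.985), Hba-x, the embryonic zeta globin (0.984), and Adra2b, an adrenergic receptor (0.984).

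The rest of the red cell programme was read from 7 lists of other genes. In the red cell membrane and skeleton list 16 of 17 genes had positive XY log2 fold changes (median 0.27) and 14 of 17 negative XX ones (median -0.30), with 0 called by limma in either sex. Without XY Kdm6b-null replicate 2 the XY median of this list was -0.096, with 6 of 17 positive, and without XX wild type replicate 2 its XX median was 0.11, with 12 of 17 positive. The authors' deposited table called 1 of the 17, Kel, a blood group metalloprotease, with a log2 fold change of -0.96 in XX (adjusted p = 0.0087). Over all its genes that table called 0.823% lower and 1.95% higher in XX, and 0.279% lower and 0.123% higher in XY. Among late erythroid proteins 10 of 10 measured were positive in XY (median 0.42) and 9 of 10 negative in XX (median -0.45). Leaving out XY Kdm6b-null replicate 2 put their XY median at -0.030, with 4 of 10 positive, while in XX it was negative whichever library was left out (-1.03 to -0.23). Trim10, a RING finger protein of late red cell maturation, was called lower in XX in the authors' deposited table (-1.09, adjusted p = 0.019). Of the globins 6 of 7 were positive in XY and 7 of 7 negative in XX (median -1.25). The globin median in XY was 0.57, and -0.17 with 2 of 7 positive without XY Kdm6b-null replicate 2. In XX it stayed between -1.35 and -1.09 whichever library was left out. In the authors' deposited table the embryonic globin Hbb-y (-1.11) and Hba-a1 (-1.22) were called lower in XX, and Hbb-bt was called higher in XY (2.39, adjusted p = 0.00054). Hba-a1 and Hbb-bt have near-identical copies, so their reads may be split. In XY the genes of smallest p in the membrane list were Cd59a, a complement inhibitor, at 0.62, and Kel at 0.81 on the log2 scale, and among late erythroid proteins Trim10 at 0.88 and Nxpe2 at 0.63, none of them called by either tool.

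The remaining 4 erythroid lists hold many genes that other cells use as well, and their medians were nearer 0. Leaving out 1 library turned the sign of the median in at least 1 sex for each of these 4 lists. Haem synthesis had medians of 0.11 in XY and -0.095 in XX over 11 measured genes, with 0 called by either tool. Fech, the enzyme that inserts iron, was at -0.41 in XX, and Alad, the second enzyme of the pathway, at 0.38 in XX and -0.36 in XY, where Ppox, a later enzyme, was at 0.22. Iron uptake and storage had 6 of 10 positive in XY (median 0.036) and 6 of 10 negative in XX (median -0.19). Slc40a1, the iron exporter ferroportin, was called lower in XX in the authors' deposited table (log2 fold change -0.93, adjusted p = 0.0038). In XY the transferrin receptor gene Tfrc was at -0.19 and the mitochondrial iron importer gene Slc25a37 at 0.41. Erythroid transcription factors and cofactors had medians of 0.013 in XY and 0.20 in XX over 17 genes. Zfpm1, the GATA1 partner FOG1, which also binds GATA4, was called higher in XX in the authors' deposited table (0.76, adjusted p = 0.0068), opposite in sign to most members. In XY the factor genes of smallest p, Runx1 and Foxo3, were at -0.58 and 0.14. Erythropoietin signalling had medians of 0.073 in XY and 0.038 in XX over 11 measured genes. Its feedback gene Socs2 was called lower in XX in the authors' deposited table (-1.11, adjusted p = 0.0067), and in XY it was at 0.29 and the survival gene Bcl2l1 at 0.27. The ligand gene Epo was below the limit of a mean of 10 in both sexes.

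**Figure D4:**
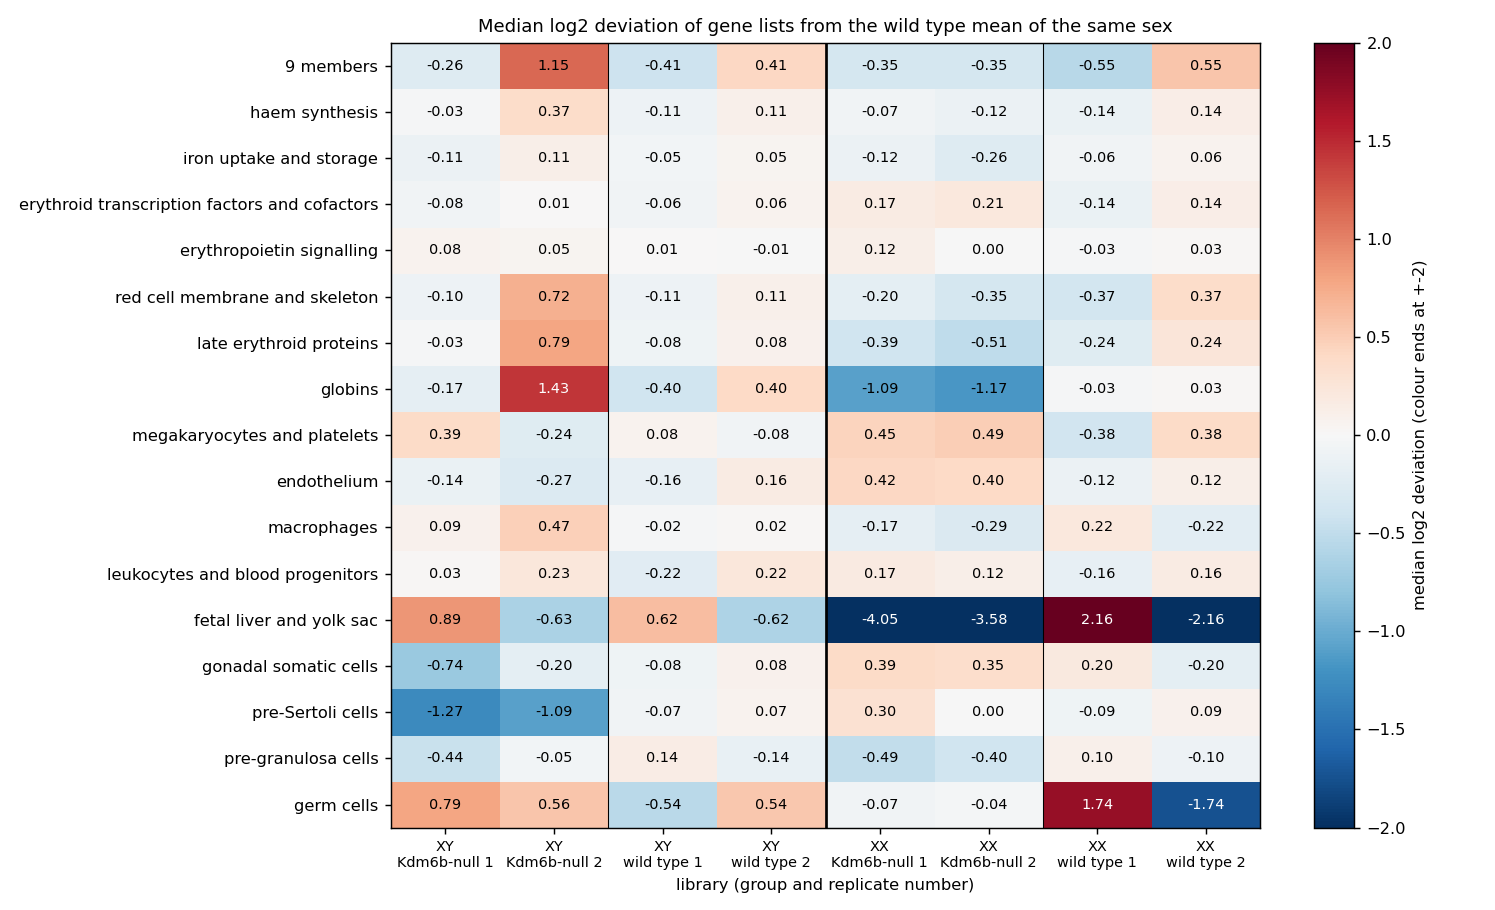
Median log2 deviation of each gene list (rows) from the wild type mean of the same sex in each of the 8 libraries (columns, Kdm6b-null left of wild type in each sex), with colour ending at 2 in either direction and the mast cell list not drawn. The 9 members, globins, red cell membrane and late erythroid rows are highest in XY Kdm6b-null replicate 2 (1.15 for the members). The macrophage (0.47), haem synthesis (0.37), leukocyte (0.23) and iron (0.11) rows are also highest in that library. The fetal liver and yolk sac row sets XX wild type replicate 1 (2.16) apart from replicate 2 (-2.16).

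Markers of other cell types that use some of these genes were read beside the members. Fetal liver and yolk sac markers were lower in XX null gonads for 8 of 8 genes (median -3.81), summing to 118 and 115 normalized counts in XX null libraries, against 15112 and 425 in XX wild type libraries. The authors' deposited table called 5 of the 7 it tested lower in XX, against 0.823% of all its genes. Without XX wild type replicate 1 the median was -1.54, with 5 of 8 negative. In XY 4 of the 8 were measured, 2 of them positive (median 0.32), and their median was -0.63 without null replicate 1. Megakaryocyte and platelet markers (10 of 10 measured) had a median of 0.50 in XX with 9 of 10 positive, and 0.094 in XY with 7 of 10 positive. Leaving out XX wild type replicate 1 put the XX median at 0.00051, and leaving out XY null replicate 1 put the XY median at -0.24. Their sum ranged over 2012 to 3659.8 normalized counts in XY null libraries, against 2859 to 5198 in XY wild type libraries, and over 4347 to 4808 in XX null libraries, against 1848 to 2605 in XX wild type libraries. Most of it was Vwf, which endothelium also makes, while the platelet integrin Itga2b had 209 to 359 in the 8 libraries. Endothelial markers had a median of -0.23 in XY with 9 of 10 negative, and 0.40 in XX with 10 of 10 positive. In XY the endothelial median was 0.019 without wild type replicate 2, and in XX it was 0.36 to 0.52 whichever library was left out. They summed to 15485 to 16557 in XY null libraries, against 15968 to 21002 in XY wild type libraries, and to 18271 to 18394 in XX null libraries, against 12256 to 13576 in XX wild type libraries. Tal1, which endothelium shares, was at -0.35 (SE 0.27) in XX, and at 0.060 without XX wild type replicate 2. Of 9 mast cell markers, Mcpt4, Fcer1a and Mrgprb2 were at 0 in all 8 libraries, and Cpa3, a mast cell protease, had 38.8 in XX wild type replicate 1 and at most 17.2 elsewhere. Hdc, which makes histamine, had 320.2 in that library and 38.9 to 91.7 in the other 7. Ms4a2, another mast cell gene, had 4.85 in that library, against 18.8 in XY wild type replicate 1 and 11.1 in XX wild type replicate 2, and Tpsab1, a tryptase gene, had 6.79, against 7.80 in XY Kdm6b-null replicate 1. The last 2 mast cell markers, Cma1 and Tpsb2, had at most 1 count in any library. The macrophage list (11 of 11 measured) was at 0.28 in XY and -0.27 in XX (0.063 without XX wild type replicate 1). The leukocyte and progenitor list (5 of 8 measured) was at 0.21 in XY (0.027 without XY wild type replicate 1) and 0.22 in XX. Gonadal somatic markers had a median of -0.43 in XY and 0.37 in XX, and pre-Sertoli markers -1.20 in XY and 0.14 in XX. Pre-granulosa markers had -0.28 in XY and -0.47 in XX, and germ cell markers 0.61 in XY. Without XX Kdm6b-null replicate 1 the pre-Sertoli median in XX was -0.00095. The pre-granulosa median in XY was -0.054 without XY Kdm6b-null replicate 1, and the germ cell one 0.21 without XY wild type replicate 1. In XX the germ cell value was -0.028 over wild type libraries that stood far apart: it was 1.30 without wild type replicate 1 and -1.84 without wild type replicate 2. In XX the authors' deposited table, which called 1.95% of all its genes higher, called 3 of 10 endothelial markers higher and 1 each of the megakaryocyte, leukocyte, gonadal somatic and germ cell lists. In XY the authors' deposited table called 1 macrophage marker higher, against 0.123% of all its genes, and 1 gonadal somatic and 1 pre-Sertoli marker lower, against 0.279%. The part of these cells in the member values was not tested.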

How the data were processed

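Per the labels' protocols, polyadenylated RNA of pooled gonads was sequenced with paired 100-base reads, and amplified reads carried no molecular identifiers in the description. GRCm38 (mm10), DESeq2 2.11.40.8, featureCounts 2.0.8, STAR 2.7.11 and cutadapt 4.9 appear in the submitters' processing notes, without strand setting or annotation release. The normalized count used as signal is the count per gene that the authors divided by 1 size factor per library, separately for XX and XY. The authors' deposited tables also give log2 fold changes with SE, a Wald score (not used) and p-values. The XX table has no header, and its columns were matched to the XY table. In every library 100% of nonzero values were whole multiples of 1 step (tolerance 1e-06), read as 1 count for depth. A screen for recovered reads did not accept this, so no count model was run.

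In R 4.3.3, limma 3.58.1 tested values as log2(normalized count + 1) with a mean-dependent prior variance, genotype as the only term, on genes with a mean of at least 10, with Benjamini-Hochberg adjustment over all genes at 0.05. The sexes were fitted apart, and their difference in 1 fit of 8 libraries. The method was tested on simulated data, whose replicates were drawn with less spread than the members showed outside the XX null. That test does not measure power in these libraries. Fold changes on this scale understate those of low genes. The members and the 17 lists (165 genes, 164 matched) were chosen with earlier results of these data known. Named were all members, the members of each erythroid list called in the authors' table (up to 4, otherwise up to 2 of smallest p), leading markers, and the 5 genes of most like pattern. The alternatives were 2 other pseudocounts, 2 other filters, 3 scalings, 1 prior variance, a replicate block, a fit of all libraries and leaving out each library. The gene lists were read with each library left out after the data were seen.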

Additional observations from a re-analysis of the deposited data

How the results depend on the processing

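With 2 pools per group, single libraries decided most values. Genes called by limma in XY numbered 0, against 1 with 1 prior variance for all genes and 23 with the replicate block, and 0 to 2 with a library left out. In XX they numbered 0, against 2 with the replicate block, 10 with all 8 libraries in 1 fit and 0 to 3550 with a library left out. For the difference they numbered 0, against 12 with XX wild type replicate 1 and XY Kdm6b-null replicate 2 both left out (chosen after seeing the data) and 0 to 43 with 1 library left out. Members called were 0 under all settings that kept every library, and 0 to 5 in XX with a library left out. The cause was not tested. The median log2 fold change of the members ran from -0.26 to 1.15 in XY, from -0.92 to 0.060 in XX and from 0.18 to 1.59 for the difference with a library left out.

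Member signs held under every other setting but 2: Gata1 in XX was at -0.048 with libraries rescaled to the same sum and at -0.056 when globins were left out of that sum, against 0.016. With a library left out, XY values crossed 0 for Alas2 (-0.27 to 1.18), Klf1 (-0.39 to 1.29), Gata1 (-0.29 to 1.15), Epor (-0.22 to 0.89), Tal1 (-0.33 to 0.50), Nfe2 (-0.072 to 0.88) and Epb42 (-0.26 to 0.99). XX values crossed 0 for Klf1 (-0.92 to 0.33), Gata1 (-0.77 to 0.80), Epor (-0.55 to 0.73), Tal1 (-0.76 to 0.060) and Nfe2 (-0.68 to 0.18). The difference crossed 0 for Klf1 (-0.089 to 1.59), Gata1 (-0.37 to 1.20) and Epor (-0.40 to 0.89). Same-numbered libraries deviated together with a correlation of 0.24 in XY and -0.062 in XX, and nothing in the labels pairs them. The replicate block changed no member's call.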

Other observations

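Among other erythroid genes, picked after their values were seen, XX wild type replicate 1 also showed uneven levels. Hemgn, a nuclear protein of erythroid progenitors, had 726 and 685 normalized counts in XX Kdm6b-null gonads, against 293 and 1562 in XX wild type replicates 1 and 2. Hbb-bh1, an embryonic beta-like globin, had 15248 and 18458 in the XX null, against 11461 and 30577 in wild type. Hbb-y, the other main embryonic beta-like globin, had 54605 and 53299 in the XX null, against 114162 and 118333 in wild type. Hbb-bs, an adult beta globin that shares reads with Hbb-bt, had 806 and 342 in the XX null, against 5101 and 1683 in wild type.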
